A study of Mus musculus with 2 samples.

Results

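The cells described here are 62 collagen-rich, keratin-poor and CD45-poor barcodes from Hepa1-6 tumours, taken as tumour fibroblasts with possible mural cells. They were chosen on measured counts. Each barcode had 500 or more UMIs (unique molecular identifiers, each counting 1 captured RNA molecule), a minimum of 300 genes, and mitochondrial transcripts at or under 15% of its UMIs. It also held at least 10 UMIs over Col1a1, Col1a2 and Col3a1, at most 5 over the keratins Krt8 and Krt18, and at most 1 of Ptprc, the gene of CD45. Of 17369 deposited barcodes, 15267 passed the filter on depth and mitochondrial content, and 62 of these met the rule, 19 in the control library and 43 in the treated library.

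The study profiled tumours of Hepa1-6, an established mouse hepatoma line, by single-cell RNA sequencing in mice with or without CD147-LYTACs. The control group is 1 library labelled control, with no agent named, and the treated group is 1 library from mice dosed with CD147-LYTACs at 40 mg/kg, once every 3 days, 4 doses in all. Tumours of both groups were harvested on day 12. For the route the labels leave a choice (intraperitoneal or intravenous) and give neither the strain, age or sex of the mice nor the number of tumours in a library. Cells negative and positive for CD45 were sorted apart and pooled at 1 part to 3 parts, so the share of fibroblasts among all barcodes depends on that mixing.

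Fibroblasts make and remodel the extracellular matrix: they secrete fibrillar collagens, crosslink them, and release proteases and their inhibitors. In tumours, cancer-associated fibroblasts are often described as matrix-producing, contractile (myofibroblastic) or cytokine-secreting (inflammatory), and mural cells are the pericytes and smooth muscle cells that wrap vessels. CD147, encoded by Bsg and also known as extracellular matrix metalloproteinase inducer, is a membrane glycoprotein that chaperones lactate transporters to the cell surface and is known for raising protease output of neighbouring fibroblasts. LYTACs, or lysosome-targeting chimaeras, bind a surface protein and carry it to the lysosome for degradation, an effect on protein that RNA counts do not measure.

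The control library held 143495332 UMIs in 8150 barcodes and the treated library 149812326 UMIs in 9219. In the fibroblasts the UMIs per barcode ran from 1491 to 40356 (median 14625) in the control and from 940 to 37838 (median 13866) in the treated library, 296850 and 617206 UMIs in sum. The median mitochondrial share was 1.75% and 2.32%. The deepest barcode alone held 13.6% of the control sum and 6.13% of the treated sum. The 2 libraries shared 24 barcode sequences, none of them a fibroblast. Each group is 1 library, so there is no test between groups. All 95% intervals below cover counting error only, and differences between mice, tumours and library preparations cannot be told apart from an effect of treatment.

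The rule genes were at high level by construction. Col1a1, Col1a2 and Col3a1 summed to a median of 153 UMIs per control barcode (10 to 1342) and 130 per treated barcode (16 to 1542). Near the threshold, 2 control and 2 treated fibroblasts held 10 to 19 collagen UMIs, and 3 control and 1 treated barcodes with 5 to 9 fell just outside. A further 1 control and 3 treated barcodes were left out by the keratin limit alone, and 3 and 3 by the Ptprc limit alone. Most of the fibroblasts lay far from these limits: keratin UMIs reached 2 in the control and 3 in the treated barcodes, and Ptprc was at 0 in 17 and 41.

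Genes the rule did not use were those of fibroblasts. Dcn, the proteoglycan decorin, had a UMI in 19 of 19 control and 42 of 43 treated barcodes. Postn, the matricellular protein periostin, had one in 19 and 39, and Fstl1, a secreted follistatin-like protein, in 19 and 42. Pdgfra, the PDGF receptor typical of fibroblasts, was found in 13 (68.4%) and 32 (74.4%), and Lum, the proteoglycan lumican, in 18 and 40. Dcn is the least specific of these, since 75.6% of control and 81.5% of treated hepatoma barcodes also had a UMI of it at median depths of 46915.5 and 43341 UMIs. After thinning every barcode to 1000 UMIs, Dcn was in 84.2% and 90.5% of fibroblasts against 16.0% and 22.4% of hepatoma barcodes, and Postn in 78.9% and 61.9% against 0 of 1852 and 0 of 2052, which allows up to 0.199% and 0.180%. Among the 20 genes with the greatest lead over hepatoma and CD45 barcodes were Gas1, Col3a1, Sfrp4, Postn, Vgll3, Srpx2, Mmp3, Rarres2, Cxcl12, Nova1, Sfrp2, Col5a2, Col6a2, Serpina3n, Scn7a, Mgp, Fstl1, Col1a2 and Sulf1. The mean level per barcode of the 20 genes was 51.9 to 7579 CPM (a gene's share of a barcode's UMIs, scaled as counts-per-million) in the fibroblasts and at most 1.24 CPM in the other classes. This lead is a description, since the cells were chosen on their collagen counts.

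**Figure D1:**
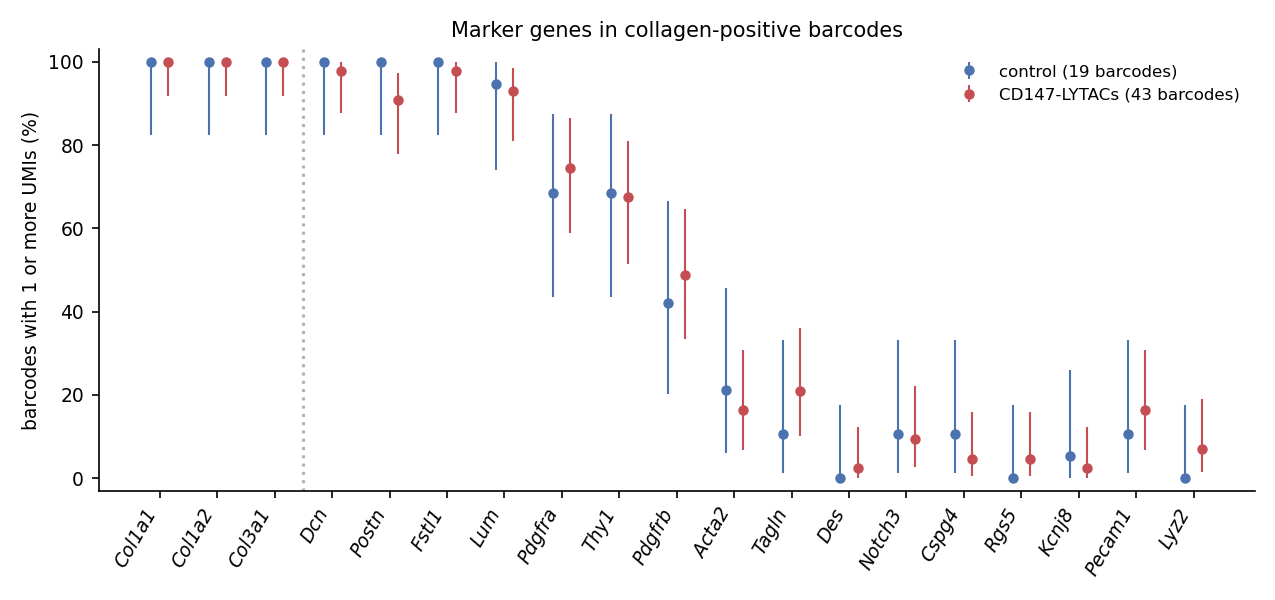
Percent of collagen-positive barcodes (y axis) with at least 1 UMI of each marker gene (x axis) in the control library (blue, 19 barcodes) and the CD147-LYTACs library (red, 43 barcodes), with exact Clopper-Pearson 95% intervals. Genes left of the dotted line were used to choose the barcodes. Dcn, Postn, Fstl1 and Lum were in at least 90.7% of barcodes of each library, and the mural marker Rgs5 was in 0 and 2 barcodes.

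The mural part of the label was met by 1 barcode. Rgs5, the usual pericyte marker, had 0 UMIs in the 19 control barcodes and 182 in the treated ones, 181 of them in a single barcode of 23104 UMIs. That barcode also held 15 UMIs of Notch3, 16 of Ndufa4l2, 6 of Higd1b, 6 of Cox4i2, 73 of Acta2 (smooth muscle actin) and 5 of Myh11 (smooth muscle myosin), with 51 UMIs over Col1a1, Col1a2 and Col3a1 and 0 of Dcn, Pdgfra and Lum. Over the mural list without Pdgfrb and Des it had 253 UMIs, and the next highest sum was 8 among the treated barcodes, as was the highest among the control barcodes. A sum of 3 or more was reached by 4 of 19 control barcodes (21.1%, 6.05% to 45.6%, exact Clopper-Pearson) and 6 of 43 treated barcodes (14.0%, 5.30% to 27.9%), intervals that overlap. These sums form a range and no separate type: 7 control and 11 treated barcodes lay between 1 and 4. After thinning to 1000 UMIs the shares were 0 of 19 (up to 17.6%) and 1 of 42. The other 61 barcodes are therefore called collagen-positive fibroblasts, and no difference in mural cells could be read from 1 barcode. Among all passing barcodes 0 control and 2 treated ones had 3 or more Rgs5 UMIs, and 1 of them met the rule. Mural cells outside the rule are not described here. Of the label's own markers, Pdgfrb was in 8 control (42.1%) and 21 treated (48.8%) barcodes and Acta2 in 4 (21.1%) and 7 (16.3%).

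**Figure D2:**
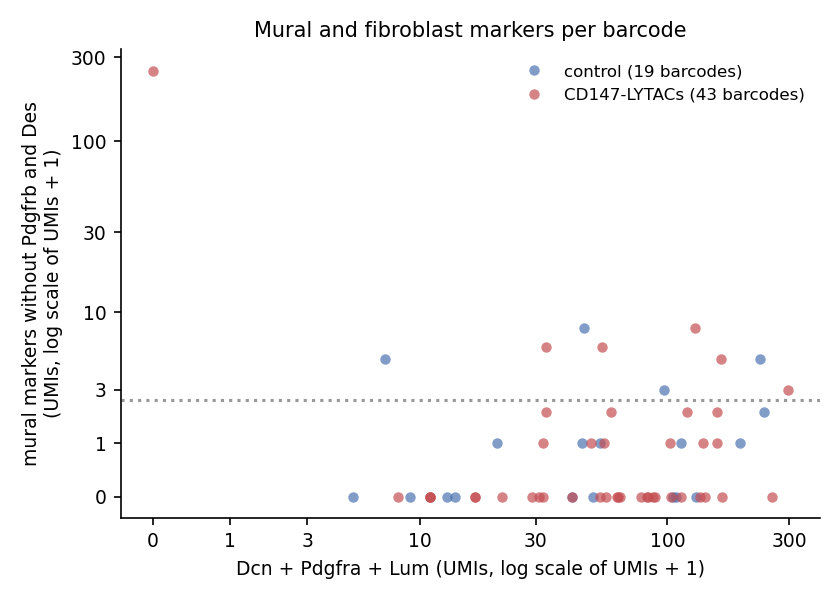
UMIs per barcode over the mural markers without Pdgfrb and Des (y axis) against UMIs over Dcn, Pdgfra and Lum (x axis), both on a log scale of UMIs + 1, for 19 control (blue) and 43 CD147-LYTACs (red) barcodes. The dotted line marks 3 or more mural UMIs. A single treated barcode with 253 mural UMIs has none of the 3 fibroblast genes.

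Markers of immune cells were near 0 in most barcodes, and some genes listed for other lineages were not. Cd3e (T cells) had 0 UMIs in all 62 barcodes, and the 12 T and NK markers together gave at most 3 UMIs in a barcode. The 12 endothelial markers had a UMI in 11 of 19 control and 27 of 43 treated barcodes (highest sums 7 and 14, 74.1 CPM and 157 CPM over all fibroblasts), with Cdh5 at 0 and Pecam1 at 2 UMIs in 2 control and 20 UMIs in 7 treated barcodes. The 12 monocyte and macrophage markers reached 3 UMIs in the control and 24 in 1 treated barcode. The 8 neutrophil markers reached 2 in the control and 61 in 1 treated barcode of 11371 UMIs, 20.2 CPM and 139 CPM summed over all fibroblasts. The 16 hepatoma markers had a median of 3 and 4 UMIs per barcode (highest 31 and 55), 374 and 656 CPM in sum, and reached 10 UMIs in 4 control and 9 treated barcodes. Of these genes only Apoe and H19 reached 50 UMIs over both libraries, and Apoe alone had up to 28 and 54 in a barcode. Afp had 0 UMIs in the control and 1 in the treated barcodes, and Krt8 and Krt18 were limited by the rule. The 6 cartilage and bone markers reached 10 UMIs in 2 and 7 barcodes (highest 26 and 50), the 6 adipocyte markers in 0 and 2 (highest 8 and 188) and the 6 skeletal muscle markers in 0 and 1 (highest 1 and 12). Of these lists only Sox9 and Runx2 (cartilage and bone), Fabp4 (adipocyte) and Des and Ckm (skeletal muscle) had any UMI. The 188 UMIs of Fabp4 and the 12 of Des lay in the barcode rich in mural markers. The doublet caller's highest scores removed none of the control and 5 of the treated barcodes. Leaving out the barcodes with 10 or more UMIs over the T and NK, B, macrophage, neutrophil and endothelial lists removed 0 control and 5 treated barcodes, and that setting is called the removal of immune and endothelial barcodes. The name is that of the lists: the limit is on UMIs whatever the depth, and the cell type of these 5 barcodes was not tested. No setting left out barcodes by their sums over the hepatoma, cartilage, adipocyte or muscle lists, and the part of these markers in the results was not tested. Leaving out the barcode rich in mural markers did leave out the one with the highest adipocyte and muscle sums.

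Counting all 62 barcodes, the 1 rich in mural markers included here and in the pooled values, fibroblasts made up 0.268% of passing control barcodes (0.161% to 0.418%) and 0.526% of passing treated barcodes (0.381% to 0.708%). Among fibroblast and hepatoma barcodes together they were 19 of 1881 (1.01%, 0.609% to 1.57%) in the control and 43 of 2109 (2.04%, 1.48% to 2.74%) in the treated library. The treated share was the higher on both denominators, and the intervals of the 2 libraries overlapped on both. Without replicate tumours the share of fibroblasts could not be tested.

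Genes were compared as pooled CPM, a gene's UMIs over all fibroblasts of a library scaled to their total. Summed over the fibroblasts of both libraries, 3016 genes reached 50 UMIs. Of these 491 (16.3%) were at least 1.5-fold higher and 432 (14.3%) at least 1.5-fold lower in treated fibroblasts. With the counting interval of the ratio also excluding no difference these were 338 (11.2%) and 369 (12.2%). The median log2 ratio (treated over control) of all 3016 genes was 0.03. These shares are the background for each group of genes below, whose members are counted at 1.5-fold.

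**Figure D3:**
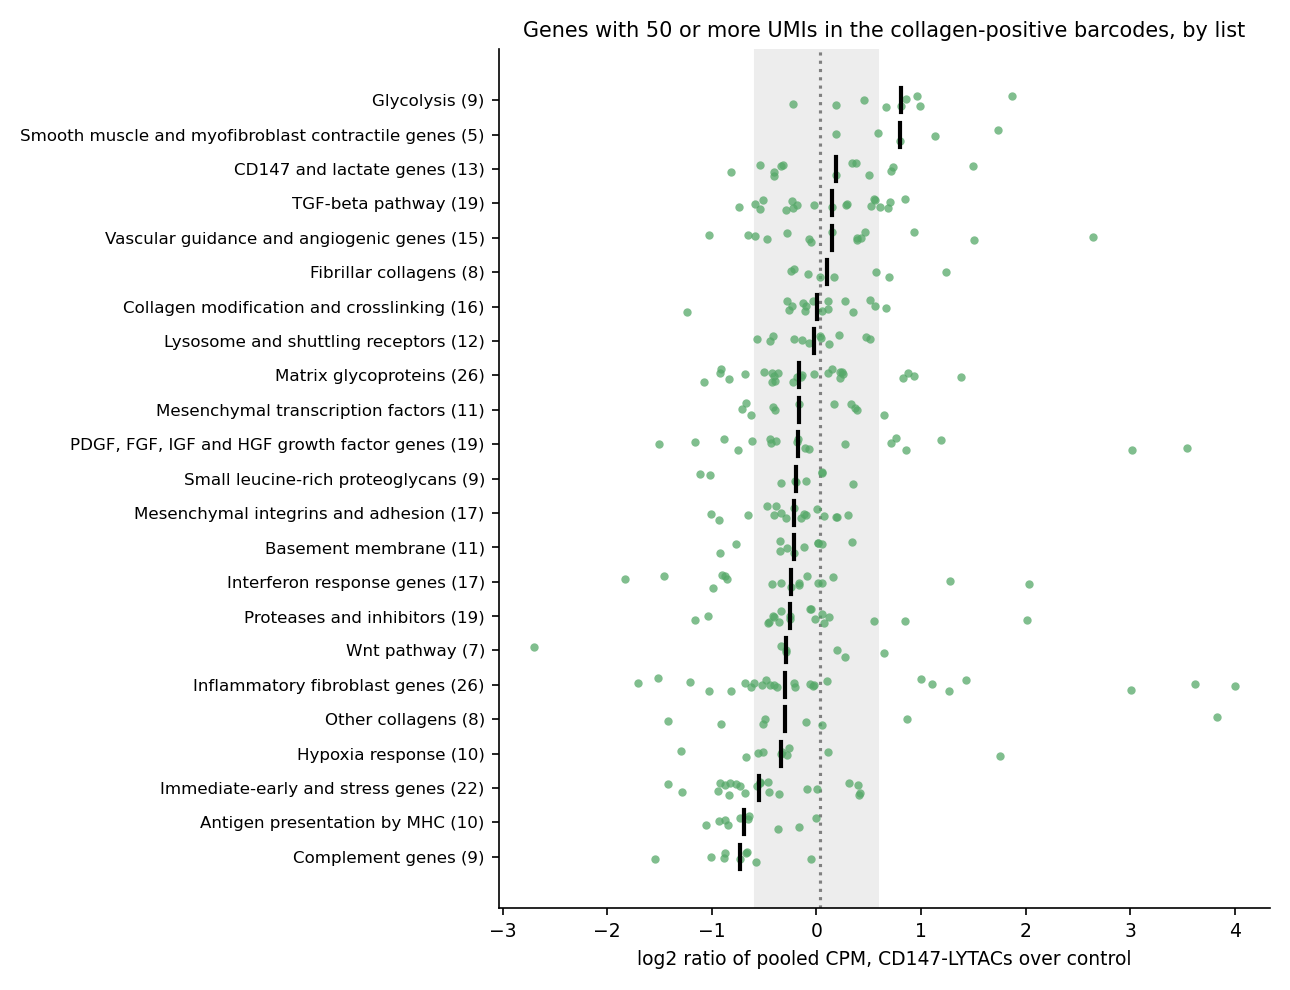
Log2 ratio of pooled CPM, CD147-LYTACs over control (x axis), of each gene with at least 50 UMIs (green points) in lists of at least 5 such genes (y axis, number of genes in brackets), with the list median as a black bar. The grey band is within 1.5-fold and the dotted line is the median of all genes, 0.03. Complement and MHC genes have the lowest medians (-0.73 and -0.69), glycolysis and contractile genes the highest (0.81 and 0.79).

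The fibrillar collagens, the rod-like collagens that carry tension, were at close levels in the 2 libraries. Col1a1 stood at 5467 CPM in the control and 5583 CPM in the treated fibroblasts, a log2 ratio of 0.03 (-0.06 to 0.12). Col1a2 stood at 6023 and 5710 CPM (-0.08, -0.16 to 0.01) and Col3a1 at 9055 and 7829 CPM (-0.21, -0.28 to -0.14). Of 8 fibrillar collagens counted 2 were higher and none lower, with a median of 0.10: Col24a1 (37.1 and 87.5 CPM) and Col27a1 (57.3 and 92.4 CPM), both with few UMIs. Since the cells were chosen on 3 of these genes, their equal level describes the choice as well as the cells.

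Among other collagens 2 of 8 were higher and 2 lower (median -0.30). Col12a1, a fibril-associated collagen, was 667 CPM in the control and 249.5 CPM in the treated fibroblasts (log2 -1.42, -1.73 to -1.11). Col6a3, the longest chain of microfibrillar collagen VI, was 849 and 452 CPM (-0.91, -1.16 to -0.66), whereas its partner chains Col6a1 (0.06) and Col6a2 (-0.10) were within 1.5-fold. Col8a1, a short-chain collagen, was 165 and 301 CPM (0.87), with 134 of its 186 treated UMIs in 1 barcode. It stood at -0.74 after the removal of immune and endothelial barcodes. Basement membrane genes had 0 of 11 higher and 2 lower (median -0.22), and Col4a1 was at 515 and 520 CPM. Enzymes that modify and crosslink collagen had 1 of 16 higher and 1 lower (median 0.01). Lox, the lysyl oxidase that starts crosslinking, was 253 and 402 CPM (0.67, 0.29 to 1.06), with a UMI in 8 of 19 and 29 of 43 barcodes.

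Matrix glycoproteins had 4 of 26 higher and 5 lower (median -0.17), close to the background shares. Tnc, tenascin C, a glycoprotein of wounds and tumour stroma, was 414 CPM in the control and 1081 CPM in the treated fibroblasts (log2 1.38, 1.10 to 1.67). It was at 0 in 12 of 19 control and 24 of 43 treated barcodes, and its highest counts were 76, 17 and 14 UMIs in the control and 162, 112 and 81 in the treated library, so the per-barcode values overlap widely. Postn was 1735 and 2028 CPM (0.23), Sparc, a collagen-binding glycoprotein, 7276 and 6235 CPM (-0.22), and Fn1, fibronectin, 2089 and 1578 CPM (-0.40). Lower genes were Eln (elastin, -1.07), Mfap4 (-0.92), Ecm1 (-0.91), Fbln5 (-0.83) and Thbs2 (-0.68). Under the alternative that changed each most, Eln came to -0.34, Mfap4 to -0.14, Ecm1 to -0.22 and Thbs2 to -0.14, all within 1.5-fold. Of 9 small leucine-rich proteoglycans 0 were higher and 2 lower, Fmod (-1.11) and Ogn (-1.01), with Dcn at 4305 and 4480 CPM (0.06) and Lum at 717.5 and 912 CPM (0.35).

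Proteases and their inhibitors, the genes nearest to the older name of CD147, had 2 of 19 higher and 2 lower (median -0.25). The gelatinase Mmp2 was 556 and 578 CPM (0.06), the stromelysin Mmp3 711 and 680.5 CPM (-0.06), and the membrane-bound collagenase Mmp14 620 and 650 CPM (0.07), Mmp14 having a UMI in all 62 barcodes. The counting intervals of all 3 ratios included no difference. Mmp19 was 64.0 and 115 CPM (0.85). Adamts1, a secreted protease of proteoglycans, was 1065 and 518.5 CPM (-1.04, -1.27 to -0.81), and Fap, a surface protease used as a marker of activated fibroblasts, 185 and 82.6 CPM (-1.16, -1.74 to -0.59).

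Timp1, a secreted inhibitor of metalloproteinases (chromosome X, 20870166 to 20874735, GRCm38), was higher in treated fibroblasts. It stood at 563 CPM (480.5 to 655) in the control and 2270 CPM (2153 to 2392) in the treated fibroblasts, 4.03-fold and a log2 ratio of 2.01 (1.78 to 2.25). A UMI was seen in 12 of 19 and 36 of 43 barcodes. Counts per barcode ran from 0 to 73 (median 2) in the control and from 0 to 479 (median 3) in the treated library: most barcodes overlap, and 3 treated barcodes with 479, 254 and 201 UMIs held 66.7% of the treated sum. The mean over barcodes gave 1.66 and the ratio ranged from 1.41 to 2.24 over all alternatives. Timp2 (-0.46) and Timp3 (-0.05) were within 1.5-fold. In CD45 barcodes of the same libraries Timp1 was also higher in the treated one (2.92), in hepatoma barcodes by 0.33.

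Inflammatory fibroblast genes stood in both directions, with 7 of 26 higher and 8 lower (median -0.30), both shares above the background. Saa3, an acute-phase serum amyloid A protein (chromosome 7, 46711998 to 46715700, GRCm38), had the greatest ratio among the genes that met the naming rule given below. It was 222 CPM (172 to 283) in the control and 3551 CPM (3404 to 3703) in the treated fibroblasts, 16.0-fold and a log2 ratio of 4.0 (3.64 to 4.37). It was seen in 7 of 19 and 17 of 43 barcodes, 36.8% and 39.5%. The highest counts were 33, 10, 10 and 10 UMIs in the control and 707, 437, 282 and 269 in the treated library, where 11 barcodes held 10 or more. After thinning to 1000 UMIs, 10.5% of control and 28.6% of treated fibroblasts kept a UMI, against 0.0540% and 0.195% of hepatoma and 0.225% and 2.36% of CD45 barcodes. Saa3 was higher in the treated library in those classes too (log2 2.72 and 3.51). Neutrophil markers summed to 139 CPM in treated and 20.2 CPM in control fibroblasts: the barcode with most of them held 17 UMIs of S100a8, 32 of S100a9 and the highest Saa3 count, 707. The Saa3 ratio was 3.27 after the removal of immune and endothelial barcodes and 3.48 without the highest doublet scores.

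Other genes of the list that were higher were Il11, a cytokine linked to fibrosis, at 26.9 and 217 CPM (3.01, 1.99 to 4.25), Lcn2, the iron-binding lipocalin, with 2 and 51 UMIs (3.62, 1.69 to 6.70), 21 of the 51 in the barcode rich in neutrophil markers, and Lif, a cytokine of the interleukin 6 family, at 1.43. Il11 was in 3 of 19 control and 11 of 43 treated barcodes, and 3 of the latter held 88.8% of its 134 treated UMIs. Has2, a hyaluronan synthase, was 94.3 and 227 CPM (1.27), and at -0.66 when thinned to 1000 UMIs. Cxcl5, a neutrophil-attracting chemokine, was 525.5 and 1128 CPM (1.10, 0.85 to 1.36), in 6 of 19 and 22 of 43 barcodes. Cxcl14 was at 1.00 as a pooled ratio and at -0.26 as a mean over barcodes, 73.3% and 63.9% of its UMIs lying in 1 barcode of each library.

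The neutrophil attractants Cxcl1 and Cxcl2 went the other way. Cxcl2 was 5986 CPM in the control and 2587 CPM in the treated fibroblasts (-1.21, -1.31 to -1.11), and Cxcl1 5350 and 3040 CPM (-0.82, -0.91 to -0.72). In CD45 barcodes both were higher in the treated library, by 3.19 and 2.85, and in hepatoma barcodes by 1.73 and 0.77. Ccl7, a monocyte attractant, was 3396 and 1042 CPM (-1.70, -1.85 to -1.56), with a UMI in 19 of 19 control and 31 of 43 treated barcodes. One control barcode held 593 of 1008 Ccl7 UMIs, and the ratio was -0.55 without the deepest barcode of each library. Ccl2, its neighbour in function, was 3810 and 2722 CPM (-0.49), and 0.14 without those barcodes. Csf1, the growth factor of macrophages, was 1034 and 363 CPM (-1.51, -1.77 to -1.26) and stayed between -1.61 and -1.27 over the alternatives. Il6 (-0.62), Ptgs2, the inducible cyclooxygenase (-0.69), Has1 (-0.60) and Ly6c1 (-1.03) were lower as well. Cxcl12, a leading gene of these fibroblasts and a chemokine that retains lymphocytes, was at 835 and 896 CPM (0.10).

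**Figure D4:**
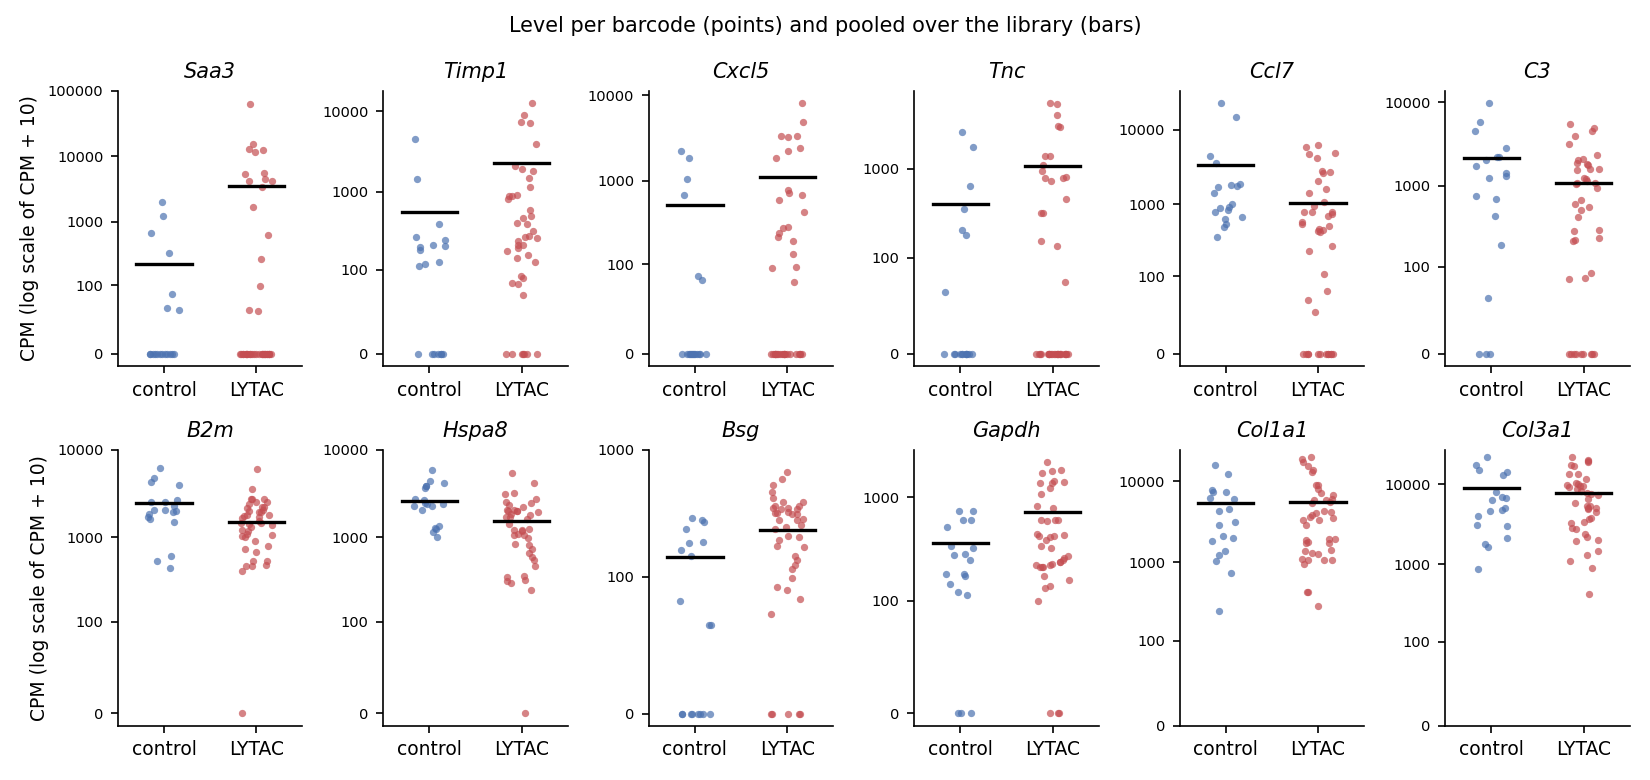
CPM per barcode (points, log scale of CPM + 10) and pooled CPM of the library (black bars) for 12 genes in 19 control (blue) and 43 CD147-LYTACs (red, labelled LYTAC) collagen-positive barcodes. Points of the 2 libraries overlap for every gene; the treated Saa3 and Timp1 bars (3551 and 2270 CPM) lie above and the Ccl7 and C3 bars (1042 and 1064 CPM) below those of the control.

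The DNA before the start sites of Saa3 and Timp1, both higher in treated fibroblasts, is shown beside that of Col3a1, whose level was close in both libraries. Of 4 genes looked up (with Col1a1) 3 had an entry in the RefSeq promoter table of GRCm38.p6. Each line runs 5′ to 3′ on the gene's strand from 250 to 31 bases before the RefSeq start, at chr7:46715707-46715926 (minus strand), chrX:20869916-20870135 (plus) and chr1:45311288-45311507 (plus), and overlaps no GENCODE exon. Capitals mark matches, on either strand, to CCAAT, to TGANTCA (a form bound by AP-1) and to TTNNGNAA (a loose form of the C/EBP site).
Saa3: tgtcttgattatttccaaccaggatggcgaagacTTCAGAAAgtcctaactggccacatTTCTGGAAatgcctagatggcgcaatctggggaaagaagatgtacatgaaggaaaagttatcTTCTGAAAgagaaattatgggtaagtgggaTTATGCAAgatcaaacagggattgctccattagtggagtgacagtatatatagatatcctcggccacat
Timp1: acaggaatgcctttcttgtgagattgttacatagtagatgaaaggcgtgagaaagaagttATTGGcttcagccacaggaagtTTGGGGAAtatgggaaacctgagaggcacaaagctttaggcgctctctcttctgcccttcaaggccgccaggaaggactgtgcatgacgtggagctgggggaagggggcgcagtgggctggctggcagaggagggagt
Col3a1: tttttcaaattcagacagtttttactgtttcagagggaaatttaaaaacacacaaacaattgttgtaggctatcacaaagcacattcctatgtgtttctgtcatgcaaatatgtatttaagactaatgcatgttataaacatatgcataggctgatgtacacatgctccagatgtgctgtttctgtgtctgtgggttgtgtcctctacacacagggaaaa
The Saa3 window held 4 matches to TTNNGNAA and none to the other forms, Timp1 held 1 match to TTNNGNAA and 1 to CCAAT, and Col3a1 held none. Of all 32851 promoters in the table, cut to the same window, 34.2% held TTNNGNAA, 0.438% at least 4 times, 31.0% held CCAAT and 6.12% TGANTCA. These matches describe the letters and say nothing about binding.

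Complement genes, whose products tag cells and debris, had 0 of 9 higher and 7 lower (median -0.73), against 14.3% lower among all genes. C3, the central component, was 2139 CPM (1976 to 2312) in the control and 1064 CPM (985 to 1149) in the treated fibroblasts, a log2 ratio of -1.01 (-1.17 to -0.85). It was at 0 in 3 of 19 and 9 of 43 barcodes, with medians of 17 and 8 UMIs and overlapping ranges (0 to 155 and 0 to 76). C4b was 751 and 258 CPM (-1.54, and 0.048 when thinned to 1000 UMIs), C1s1 839 and 457 CPM (-0.88), C1ra 519 and 313 CPM (-0.73), and Serping1, the inhibitor of C1, 1856 and 1168 CPM (-0.67). Serping1 came to -0.19 without the deepest barcode of each library and C3 to -0.20 when barcodes were thinned to 1000 UMIs. The list median lay between -0.90 and -0.63 over all alternatives. In hepatoma and CD45 barcodes it was -0.12 and 0.24.

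Genes of antigen presentation by MHC had 0 of 10 higher and 7 lower (median -0.69). B2m, the light chain of MHC class I, was 2449 and 1478 CPM (-0.73, -0.87 to -0.59), with medians of 24 and 17 UMIs per barcode. H2-K1 was 1701 and 949 CPM (-0.84) and H2-D1 1560 and 852 CPM (-0.87). These heavy chains are similar in sequence, so some reads may be split between them, which was not tested. Nlrc5, the activator of class I genes, was 121 and 58.3 CPM (-1.06). The median stayed between -0.79 and -0.35 over the alternatives and was 0.02 in hepatoma and -0.05 in CD45 barcodes, while Tap1 (-0.01) and Psmb8 (-0.17) were within 1.5-fold.

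Interferon response genes had 2 of 17 higher and 6 lower (median -0.24). Cxcl9, an attractant of T cells, was 1597 and 450 CPM (-1.83), but 304 of 474 control UMIs came from 1 barcode and the ratio was -0.70 without the top barcode of the gene. The GTPases Irgm1 (-0.98), Iigp1 (-0.88) and Igtp (-0.85) and the transcription factor Irf1 (-0.90) were lower, whereas the ubiquitin-like Isg15 (158 and 382 CPM, 1.27) and the oligoadenylate synthetase-like Oasl2 (2.03) were higher and Ifitm3 was at -0.09. Members of this list stood in both directions.

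Bsg, the gene of CD147, was 145 CPM (105 to 195) in the control and 240 CPM (203 to 282) in the treated fibroblasts, a log2 ratio of 0.73 (0.23 to 1.25). It had a UMI in 11 of 19 control (57.9%) and 38 of 43 treated barcodes (88.4%), and in 5.26% and 26.2% once thinned to 1000 UMIs. Its level in hepatoma barcodes was 1001 and 1006 CPM (0.01) and in CD45 barcodes 125 and 146 CPM (0.23). Emb, a relative of Bsg that also chaperones lactate transporters, was 162 and 266 CPM (0.72), the transporter Slc16a1 57.3 and 74.5 CPM (0.38), and Ldha, which makes lactate, 216 and 272 CPM (0.34). Of 13 genes of CD147 and lactate 3 were higher (Bsg, Emb and Cav1) and 1 lower, Mpc2 of the mitochondrial pyruvate carrier (-0.81), with a median of 0.18. Lysosomal genes and receptors that shuttle cargo to lysosomes had 0 of 12 higher and 0 lower (median -0.02), and Igf2r, the mannose-phosphate receptor, was 115 and 84.3 CPM (-0.44, -1.09 to 0.23).

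Glycolysis genes had 6 of 9 higher and 0 lower (median 0.81, against 16.3% higher among all genes). Gapdh was 367 and 716 CPM (0.96, 0.66 to 1.28), Tpi1 33.7 and 123 CPM (1.87, 0.91 to 2.99), Eno1 53.9 and 107 CPM (0.99), Pgk1 111 and 201 CPM (0.85), Gpi1 67.4 and 118 CPM (0.81) and Pkm 199 and 316 CPM (0.67). Hk2, the enzyme of the first step, was 717.5 and 616 CPM (-0.22). Several of these genes have processed pseudogenes that may share reads. Per barcode the list took a median of 0.197% of UMIs in the control and 0.177% in the treated library, with highest values of 0.304% and 0.778%. The list median was 0.08 when barcodes were thinned to 1000 UMIs. It was -0.02 in hepatoma and 0.25 in CD45 barcodes. In sum the list held 1873 and 2529 CPM in fibroblasts and 7320 and 7307 CPM in hepatoma barcodes. The part of RNA from hepatoma cells in this difference was not tested. Hypoxia genes did not go with it: 1 of 10 was higher, Hilpda (1.75), and 2 lower, Ero1l (-1.29) and Ndrg1 (-0.67), with a median of -0.33.

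Contractile genes had 4 of 5 higher and none lower (median 0.79). Cald1, a regulator of actin and myosin, was 714 and 812 CPM (0.18) and the tropomyosin Tpm1 310 and 465 CPM (0.59), each in most barcodes, whereas the other 3 genes were in few. Acta2 was 128 and 222 CPM (0.79, 0.27 to 1.35): 28 of its 38 control UMIs lay in 1 barcode and 73, 39 and 18 of its 137 treated UMIs in 3. Without the barcode rich in mural markers Acta2 was at -0.25 and the list median at 0.35. Tagln, another actin-binding protein of smooth muscle, was 84.2 and 185 CPM (1.13), with 96.0% and 73.7% of UMIs in 1 barcode of each library, and -0.56 after the removal of immune and endothelial barcodes. The treated barcode with most Tagln, 84 UMIs, was also the one with 134 UMIs of Col8a1. Tpm2, another tropomyosin, was 40.4 and 134.5 CPM (1.73, 0.85 to 2.74) in 4 and 16 barcodes.

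Receptors and ligands of growth factors had 6 of 19 higher and 5 lower (median -0.18). Pdgfra was 118 and 193 CPM (0.71) and Egfr, the EGF receptor, 303 and 548 CPM (0.85, 0.51 to 1.20). The EGF-family ligands Ereg (9 and 151 UMIs, 3.01) and Nrg1 (4 and 97 UMIs, 3.54) were higher, 58.3% of the treated Ereg UMIs lying in 1 barcode. Nrg1 was in 8 of 43 treated barcodes, 3 of which held 77.3% of its treated UMIs. Pdgfrb was 135 and 72.9 CPM (-0.89), and -0.16 as a mean over barcodes. Fgf7, a factor for epithelium, was 445 and 157 CPM (-1.50, -1.89 to -1.11), -0.71 without its top barcode. Of the IGF-binding proteins Igfbp4 was 1081 and 483 CPM (-1.16) and -0.09 when thinned to 1000 UMIs; Igfbp7 was at -0.75 and turned to 0.33 without the deepest barcodes. In the TGF-beta pathway 4 of 19 were higher and 2 lower (median 0.15): Bmpr1a (0.85), Eng (0.70), Id2 (0.68) and Id3 (0.60) against Smad7, an inhibitor of the pathway (-0.74), and Lrrc32 was at -0.59. Of the Wnt genes Sfrp2 was 357 and 559 CPM (0.65) and Sfrp4 367 and 56.7 CPM (-2.69), both secreted antagonists, with 67.9% of control Sfrp4 UMIs in 1 barcode. Among 15 vascular genes 3 were higher and 2 lower (median 0.15), Vegfc, the lymphatic growth factor, at 16.8 and 105 CPM (2.64, 1.35 to 4.31).

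Immediate-early and stress genes, which also respond to tissue dissociation, had 0 of 22 higher and 10 lower (median -0.55). Hspa8, a constitutive chaperone, was 2587 and 1523 CPM (-0.76, -0.90 to -0.63), with medians of 38 and 16 UMIs per barcode. Dnajb1 was 579 and 238 CPM (-1.28), Egr1 1438 and 786 CPM (-0.87), Fos 765 and 433 CPM (-0.82, and -1.41 after the removal of immune and endothelial barcodes) and Atf3 569 and 300 CPM (-0.93), whereas Junb was at 0.31 and Ier3 at 0.39. The same list had medians of 0.04 in hepatoma and 0.13 in CD45 barcodes. Its share of UMIs in control fibroblasts was 0.493% to 4.71% (median 1.70%), and in treated ones 0.141% to 5.11% (median 1.07%). The part of dissociation in the differences above was not tested.

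By the naming rule (at least 50 CPM in the higher library, 25% of its barcodes with a UMI, no barcode with 50% of its UMIs, the same direction as a mean over barcodes, and the further limits in the processing summary), 276 genes were higher and 318 lower. The 10 with the greatest ratio were Saa3, Txnip (2 and 64 UMIs, 3.94, 2.03 to 7.02, and 2.25 with a collagen sum of at least 5), Ddah1 (2 and 59 UMIs, 3.83, 1.91 to 6.91), Il11, Epha3, an ephrin receptor (2.90), Vegfc, Ndufa4, a subunit of the respiratory chain (37.1 and 217 CPM, 2.55), Plk2, a stress-responsive kinase (2.51), Ppm1l, a protein phosphatase (2.35), and Rfc1, a clamp loader of DNA replication (2.18). Among the 10 with the smallest were Lgr4, an R-spondin receptor (-2.17), Opcml, an adhesion molecule (563 and 138 CPM, -2.03), Sulf1, a sulfatase of heparan sulfate (903 and 262.5 CPM, -1.78), Hspb8, a small heat shock protein (-1.65), Gulp1, an engulfment adaptor (-1.60), Dennd4a (-1.57), Pde1a, a cyclic nucleotide phosphodiesterase (-1.55), C4b (0.048 when thinned) and Csf1. With 2 control UMIs, Ddah1 had too few for any alternative to be computed, and Txnip had only the value quoted. Sulf1 was seen in 17 of 19 control and 33 of 43 treated barcodes, with at most 64 and 15 UMIs. Of the 276 higher genes 14 were also 1.5-fold higher in hepatoma and 35 in CD45 barcodes, where 4.49% and 12.0% of all counted genes with a ratio were higher, and 9 and 8 were lower there. Of the 318 lower genes 10 and 13 were also lower in those classes, where 2.29% and 2.43% of all counted genes were lower, and 26 and 58 were higher.

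Matrix output varied widely among the fibroblasts of each library. Fibrillar collagens took 0.235% to 4.87% of a barcode's UMIs in the control (median 1.24%) and 0.163% to 6.16% in the treated library (median 1.48%). Barcodes rich in fibrillar collagen were also rich in matrix glycoproteins, with a Spearman rank correlation of 0.91 over 19 control and 0.72 over 43 treated barcodes, and in small leucine-rich proteoglycans (0.65 and 0.53). The collagen share had a rank correlation of 0.30 and 0.06 with the barcode's depth. The inflammatory share went with the complement share in the control (0.72) and had 0.22 in the treated library, and contractile and complement shares had -0.14 and -0.69. Only some pairs of lists are given here, and others also differed between the libraries, such as complement and glycolysis shares (0.44 and -0.42). The barcode rich in mural markers is included in the treated values. The fibrillar collagen share is mostly that of the 3 genes used to choose the barcodes, so its range and correlations describe the choice as well. These correlations are across barcodes of 1 library, which share their preparation and whose shares sum to a fixed total, and the difference between libraries was not tested.

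Barcodes with 3 or more mural UMIs were compared with the others of their library, and the genes given here were chosen for having the same direction in both libraries, so that agreement is no result. Acta2 was 294 CPM in them against 11.5 CPM in the other control barcodes and 972 against 14.5 CPM in the treated library, and Tagln 196 against 5.74 and 808 against 12.4 CPM. Mgp, a calcification inhibitor, was 2170 against 258 CPM and 1331 against 347 CPM, and Kif26b, Sorcs2, Nhsl2, Fmod, Ncam1, Prkacb and Slc8a1 also led. Csf1 was lower in them, 302 against 1549 CPM and 89.7 against 438 CPM, as were Gpc3, Fgl2, Ackr3, Mafk, Ipmk, Maff, Creb5, Uap1 and Map7. With 4 and 6 barcodes these are descriptions of few cells, 1 of which is the pericyte-like barcode. A limit of 3 UMIs also favours deep barcodes: the 4 control barcodes held 24899 to 40356 UMIs, against a median of 14625 over all control fibroblasts. In these 4, single barcodes held 257 of 266 Mgp UMIs, 28 of 36 Acta2 UMIs and all 24 Tagln UMIs.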

How the data were processed

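Single-cell RNA was measured in 1 control and 1 CD147-LYTACs library, made on the 10x Genomics Chromium platform per the labels. The authors deposited UMI counts, whole numbers with no normalization, for each gene in each barcode. Per the submitters' processing notes, Cell Ranger 3.0.2 and mm10 were used, but version 7.1.0 of Cell Ranger is written in the matrices, per the file headers. The annotation used for counting and the treatment of strand are not given in the sources used here. Of 32285 gene identifiers 99.6% were found in GENCODE release M21, used here for positions.

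The fibroblast rule and the filters are given with the results. The members, gene lists and naming rule were chosen with earlier results of these data known. UMIs were summed over the fibroblasts of a library and expressed as CPM, with exact Poisson intervals for levels, exact conditional binomial intervals for log2 ratios and Clopper-Pearson intervals for shares (95%, numpy 2.4.6, scipy 1.17.1, pandas 2.3.3). A count of 0 was taken to allow 3 counts. The calculation was tested on simulated counts with counting error only, which leave out the spread between barcodes. Hepatoma barcodes had over 5 keratin UMIs, at most 1 of Ptprc and under 10 collagen UMIs, and CD45 barcodes had 2 or more of Ptprc, at most 5 keratin and under 10 collagen UMIs. Named genes needed at least 50 UMIs over both libraries, at least 50 CPM and a UMI in at least 25% of fibroblasts in the higher library, no barcode with 50% or more of its UMIs there, a 1.5-fold ratio whose interval excluded no difference, the same direction as a mean over barcodes, and at least 10% of the level in hepatoma and in CD45 barcodes. The 10 greatest and 10 smallest ratios were named, leaving out unnamed gene models and genes of mitochondria, ribosomes, haemoglobin, T cell receptors and immunoglobulins. Up to 6 genes per list with the highest CPM, the members past 1.5-fold that met this rule, the rule and label genes, the 20 genes that lead the class and those that split it by mural markers were also named. Genes that met the rule but are not listed are not reported here. Other list members given with a value were added after their values were seen. Doublets were scored with Scrublet in scanpy 1.11.5. Its automatic threshold marked 1 control and 134 treated barcodes, so the 402 and 535 highest scores were used instead, as an alternative and not as a filter. Alternatives changed the collagen, keratin, Ptprc and mitochondrial limits, the doublets, the low-count filter, the scaling and the depth, and left out single barcodes. Leaving out the barcode rich in mural markers, and the top barcode of each gene, were chosen after seeing the data.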

Additional observations from a re-analysis of the deposited data

Results flagged for a closer look

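Pde1a, a cyclic nucleotide phosphodiesterase, was lower in treated than in control fibroblasts (104 and 35.6 CPM, 31 and 22 UMIs, log2 -1.55) and higher in the treated library in CD45 barcodes (log2 2.03). It was listed because these directions are opposite among the genes named by ratio. The difference was not tested, since each group is 1 library, and the fibroblast counts come from 7 control and 10 treated barcodes.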

How the results depend on the processing

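All values rest on 19 and 43 barcodes of 1 library each, so counting depth limits what can be seen, and fitted intervals say nothing about replicate tumours. No paired analysis was possible because each group has 1 library and the labels carry no replicate numbers. Counting genes with at least 20 UMIs gave 1311 higher and 812 lower genes in place of 491 and 432. Thinning to 1000 UMIs left 176 genes to count, 39 higher and 33 lower, and moved the share of barcodes with mural markers to 0% in the control and 2.38% in the treated library. Thinning also moved the medians of glycolysis to 0.078, hypoxia to -0.71, lysosome to 0.31, TGF-beta to -0.41 and vascular genes to -0.56, with fewer genes in each list. As a mean over barcodes the median of the small leucine-rich proteoglycans was 0.15, and 584 genes were higher and 548 lower, of which 349 and 312 were called in the pooled values.

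Of 136 named or listed genes that could be thinned 27 changed sign, and those with a called ratio in the pooled values were Angptl4 (-1.14), C4b (0.048), Has2 (-0.66), Igfbp5 (0.12) and Sox9 (-0.56, and -0.19 with at most 2 keratin UMIs). Without the barcode rich in mural markers Acta2 was -0.25 and Fabp4 -0.22, and without barcodes holding immune or endothelial markers Col8a1 was -0.74 and Tagln -0.56. Igfbp7 was 0.33 without the deepest barcode of each library and 0.019 without its own top barcode. Of 209 named or listed genes, called or not, 190 kept their sign without the deepest barcodes, 184 as a mean over barcodes and 207 without the highest doublet scores. The cause of these changes was not tested.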

Other observations

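Hp, the gene of the haemoglobin-binding protein haptoglobin, was 586 CPM in control and 55.1 CPM in treated fibroblasts (174 and 34 UMIs, log2 -3.41, -3.99 to -2.87), while it was higher in the treated library in hepatoma (2.86) and CD45 barcodes (1.76). It was chosen after its values were seen, and 50.6% of the control UMIs lay in 1 of 7 positive barcodes. The small calcium-binding protein S100a6 was 1661 and 2296 CPM (0.47), and the metallothioneins Mt1 (0.09) and Mt2 (-0.15) were within 1.5-fold.

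Several secreted or receptor genes, also chosen after their values were seen, had a large part of their UMIs in few fibroblasts. Csf3, the growth factor of granulocytes, had 105 of its 110 control UMIs and 132 of its 198 treated UMIs in 1 barcode of each library. Il1rl1, the receptor of interleukin 33, had 41 UMIs in 2 control barcodes (40 in 1 of them) and 321 in 23 treated barcodes (120 at most in 1). Il33 itself was 600 and 586.5 CPM (-0.03) and was uneven too. Its highest counts in a barcode were 101 UMIs in the control and 105 in the treated library, against a median of 1 in each. Cxcl13, an attractant of B cells, had 0 control UMIs and 82 treated ones, 81 of them in 1 barcode, and Thbs4 had 1 and 73 UMIs, the latter in 4 barcodes.

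Most proliferation genes were scarce: Mki67 had 1 UMI in control and 10 in treated fibroblasts, in 1 and 5 barcodes. The 26 proliferation genes together held 67 UMIs (226 CPM) in control and 352 UMIs (570 CPM) in treated fibroblasts. Only Hmgb2 (log2 0.93) and Pcna (0.88) had enough UMIs to be counted, and both were higher. Hmgb2 stayed between 0.51 and 1.73 over the alternatives, and Pcna ranged from -0.09 to 0.99. The list median was 0.21 as a mean over barcodes, and the difference was not tested. Xist, the transcript that silences an X chromosome, was in 18 of 19 and 41 of 43 barcodes.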
